A study of Homo sapiens with 6 samples.

Results

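Interferon-stimulated genes, together with the sensors and signalling proteins that lead to their induction, were followed in MDA-MB-231 cells, an established line of human triple-negative breast cancer. The group held 59 listed genes of the 19775 gene symbols on the array. It was given as a list of symbols, and signal values played no part in the rule. However, the list was proposed with earlier results of these data known. Of the 59 genes, 58 had a probe set (a group of short oligonucleotides that reads 1 stretch of transcript) with a single listed symbol, and STAT2 was not analysed here. A probe set entered the test where it reached the 40th percentile of its array on at least 3 of the 6 arrays. This held for 54 members, each read by its brightest such probe set, while DHX58, USP18, CMPK2 and IFI44L fell short. The study put messenger RNA of 3 samples with a stable shRNA (a short hairpin RNA that silences its target) against MYOSIN10, now named MYO10, and of 3 with a stable scrambled shRNA on 1-colour Affymetrix arrays, 1 sample per array. All 6 samples came from the same line and all carried an shRNA, so no sample without an shRNA was compared. The labels do not say whether the numbers 1 to 3 stand for separate cultures or whether each shRNA line was a pool or a clone, so p-values measure only how these samples vary, and that variation may be technical.

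Cells detect foreign or misplaced nucleic acid with a small set of sensors. TLR3 reads double-stranded RNA in endosomes, RIG-I (gene DDX58, current symbol RIGI) and MDA5 (IFIH1) read it in the cytosol and signal through MAVS on mitochondria, and the outcome is secretion of interferon. Interferon binds its receptor, the kinases JAK1 and TYK2 become active, and a complex that contains STAT2 and IRF9 enters the nucleus. There it binds a short DNA element, the interferon-stimulated response element (ISRE), upstream of genes whose products block viral entry, translation and replication. Many of the sensors are themselves induced by interferon, and breast cancer lines differ widely in how much of this program they express at rest.

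The ISRE is the shared feature of many of these promoters, so stretches that hold its core are printed here for 3 of the 7 members called higher (IFIT1, IFIT3 and RSAD2), for 4 with a larger adjusted p (CXCL10, IFI44, ISG15 and HERC5), and for IFIT5, IFITM3 and BST2, with small differences. The sequences are from RefSeq (build GRCh38.p14), run 5′ to 3′ on the gene's strand, and end upstream of the transcription start. Capitals mark matches to the core, GAAA and GAAA set 2 bases apart, or to its reverse complement, TTTC and TTTC set 2 bases apart.
IFIT1: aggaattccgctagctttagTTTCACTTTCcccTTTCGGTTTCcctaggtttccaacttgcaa
IFIT3: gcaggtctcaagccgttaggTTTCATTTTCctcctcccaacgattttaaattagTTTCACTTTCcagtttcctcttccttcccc
RSAD2: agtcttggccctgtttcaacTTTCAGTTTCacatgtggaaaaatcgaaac
CXCL10: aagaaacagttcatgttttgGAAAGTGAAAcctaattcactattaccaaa
IFI44: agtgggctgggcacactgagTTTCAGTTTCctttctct
ISG15: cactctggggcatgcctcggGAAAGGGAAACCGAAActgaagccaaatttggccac
HERC5: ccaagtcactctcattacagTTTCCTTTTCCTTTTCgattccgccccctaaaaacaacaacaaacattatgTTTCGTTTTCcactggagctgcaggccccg
IFIT5: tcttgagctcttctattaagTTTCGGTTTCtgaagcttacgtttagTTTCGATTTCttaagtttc
IFITM3: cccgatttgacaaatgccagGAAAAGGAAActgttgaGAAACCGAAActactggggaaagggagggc
BST2: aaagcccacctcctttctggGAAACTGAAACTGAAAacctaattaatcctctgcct

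These stretches lie at chr10:89392487-89392549 (IFIT1, plus strand), chr10:89327821-89327904 (IFIT3, plus), chr2:6877612-6877661 (RSAD2, plus), chr4:76023689-76023738 (CXCL10, minus) and chr1:78649751-78649788 (IFI44, plus). The others lie at chr1:1013364-1013419 (ISG15, plus), chr4:88456974-88457074 (HERC5, plus), chr10:89414503-89414567 (IFIT5, plus), chr11:320866-320932 (IFITM3, minus) and chr19:17405725-17405780 (BST2, minus). Where RefSeq gives several starts with a match, the one with the lowest coordinate is shown. IFIT1, IFIT3 and IFIT5, 3 members of 1 gene family, each held 2 matches.

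Promoter windows of 250 bases upstream of the start were listed for 49 of the 59 members. The ISRE core, searched on both strands with overlapping matches counted, occurred upstream of 25 of the 49 (51.0%), against 3.71% of all 27305 symbols in the table. The gamma-activated sequence (GAS) TTCNNNGAA, which is its own reverse complement, occurred for 15 of 49 (30.6%), against 8.09% of all symbols. The 2 motifs overlapped in BST2, EPSTI1, IFI27 and MX1. Of the other called members, HERC6 held neither motif, CXCL11 held the gamma-activated sequence but not the ISRE core, and OASL and IFIT2 were not in the table. The core thus occurred for 3 of the 5 called members in the table, for 9 of 11 uncalled members with an unadjusted p under 0.05, and for 12 of 30 other tested members. Of the 37 effector genes in the promoter table, 23 held the ISRE core, and of the 12 sensors and signalling genes in it 2 did, IFIH1 and DDX60. Matching the letters is a description and does not show a site in use. Members not in the promoter table were DHX58, IFNAR2, IRF7, OAS2, OASL, IFIT2, USP18, MX2, TRIM22 and GBP2.

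**Figure D1:**
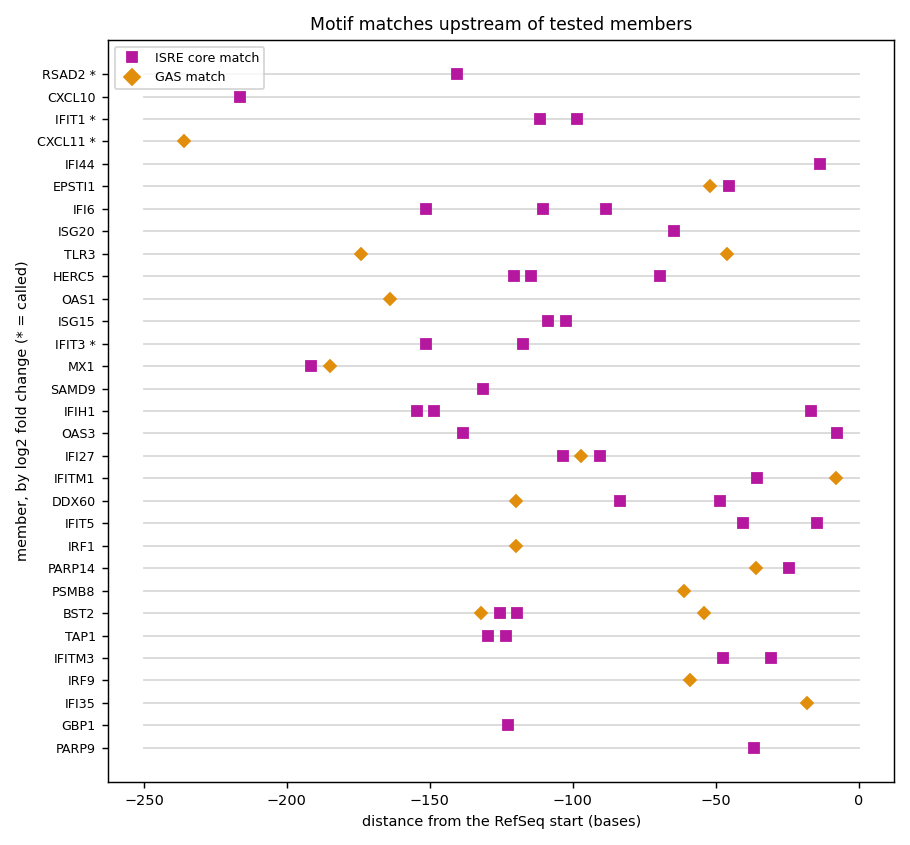
Positions of motif matches upstream of the 31 tested members with at least 1 match, in bases from the RefSeq start (horizontal axis), for the window of each gene with the most ISRE core matches. Rows are ordered by log2 fold change with the largest at the top, squares are ISRE core matches, diamonds are GAS matches, and stars mark called members. Matches occur from the top to the bottom of the order, as in RSAD2 and in BST2.

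The message of the shRNA's target was lower on the MYOSIN10 shRNA arrays by its brightest probe set. On the scale used throughout, log2 of the deposited linear signal plus 16, MYO10 read 11.57, 11.96 and 11.86 on scramble arrays 1 to 3 and 10.70, 11.39 and 10.64 on MYOSIN10 shRNA arrays 1 to 3 (log2 fold change -0.88 ± 0.18 SE, limma with Benjamini-Hochberg adjustment over all genes, adjusted p = 0.0303). Without scramble array 1 or 3 or MYOSIN10 shRNA array 1 or 3, that adjusted p was 0.0643, 0.142, 0.137 and 0.143. Of 4 dimmer MYO10 probe sets, 3 differed by -0.84 to -0.58 and the other differed by 0.31, and with the mean of probe sets MYO10 stood at -0.55 (adjusted p = 0.149). Scramble array 2 stood apart from its group, with a mean correlation across genes of 0.982 with the other scramble arrays and 0.983 with the MYOSIN10 shRNA arrays, so results are also given without it. Of the markers of the line, VIM, CD44, EGFR and CAV1 were bright, CDH1, PGR and FOXA1 were below the filter and ESR1 and ERBB2 were dim, but GATA3, which was listed as low, was bright (10.07 and 10.29 in the group means). Of the leukocyte markers PTPRC and LYZ were below the filter, and CD3E and CD14 were dim. The log2 summed signal of these 4 ran from 7.94 to 8.06 on the scramble arrays and from 7.58 to 8.44 on the others. Of the fibroblast markers 4 of 5 and of the endothelial markers 1 of 3 passed the filter, with group means of at most 7.68 and 6.78. The part of such markers in the results was not tested.

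With the MYOSIN10 shRNA, 7 interferon members were higher by the limma test and 0 were lower, out of 54 tested. The 7 were IFIT1, IFIT2, IFIT3, OASL, HERC6, RSAD2 and CXCL11, all of them effectors. RSAD2 entered the test only through the MYOSIN10 shRNA arrays, since it was under the filter's level on all 3 scramble arrays, and so had to differ; without it 6 of 53 members were called higher (11.3%), with a median log2 fold change of 0.18. With it, the called members were 13.0% of the tested members, while 1.62% of all 14174 genes tested were called, 1.16% higher and 0.459% lower. At an unadjusted p under 0.05, 18 members were higher and 0 were lower, against 8.49% and 6.39% of all genes. The 3 MYOSIN10 shRNA arrays lay above all 3 scramble arrays for 19 of the 54 members and below them for 0, against 11.2% and 8.56% of all genes. Log2 fold changes were above 0 for 43 members, with a median of 0.20, against 51.8% of all genes and a median of 0.0093. These counts also include RSAD2. Of the 53 members without it, 17 were higher at an unadjusted p under 0.05. For 18 of the 53 the MYOSIN10 shRNA arrays lay above all scramble arrays, and 42 had log2 fold changes above 0. In bulk samples a higher level in every cell and a higher share of cells with the message cannot be told apart. Without scramble array 2, 11 members were called higher and 0 lower, and 3.93% of all genes were called higher. In that setting the members' median was 0.10, against 0.00057 over all genes. At an unadjusted p under 0.05, 18 members were higher and 3 (JAK1, UBE2L6 and DTX3L) lower. Log2 fold changes were above 0 for 39. The matching shares of all genes were not computed for that setting, so these counts have no share to be read against. Without MYOSIN10 shRNA array 2, 7 were called higher, with a median of 0.30, and 1.13% of all genes were called higher. Without both arrays numbered 2, 15 were called higher and 4.90% of all genes. Without scramble array 1, scramble array 3 or MYOSIN10 shRNA array 3, 3 members were called in each case, and without MYOSIN10 shRNA array 1, 2 were called. The shares of all genes called higher in these 4 cases were 0.473%, 0.452%, 0.452% and 0.367%, in the same order.

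**Figure D2:**
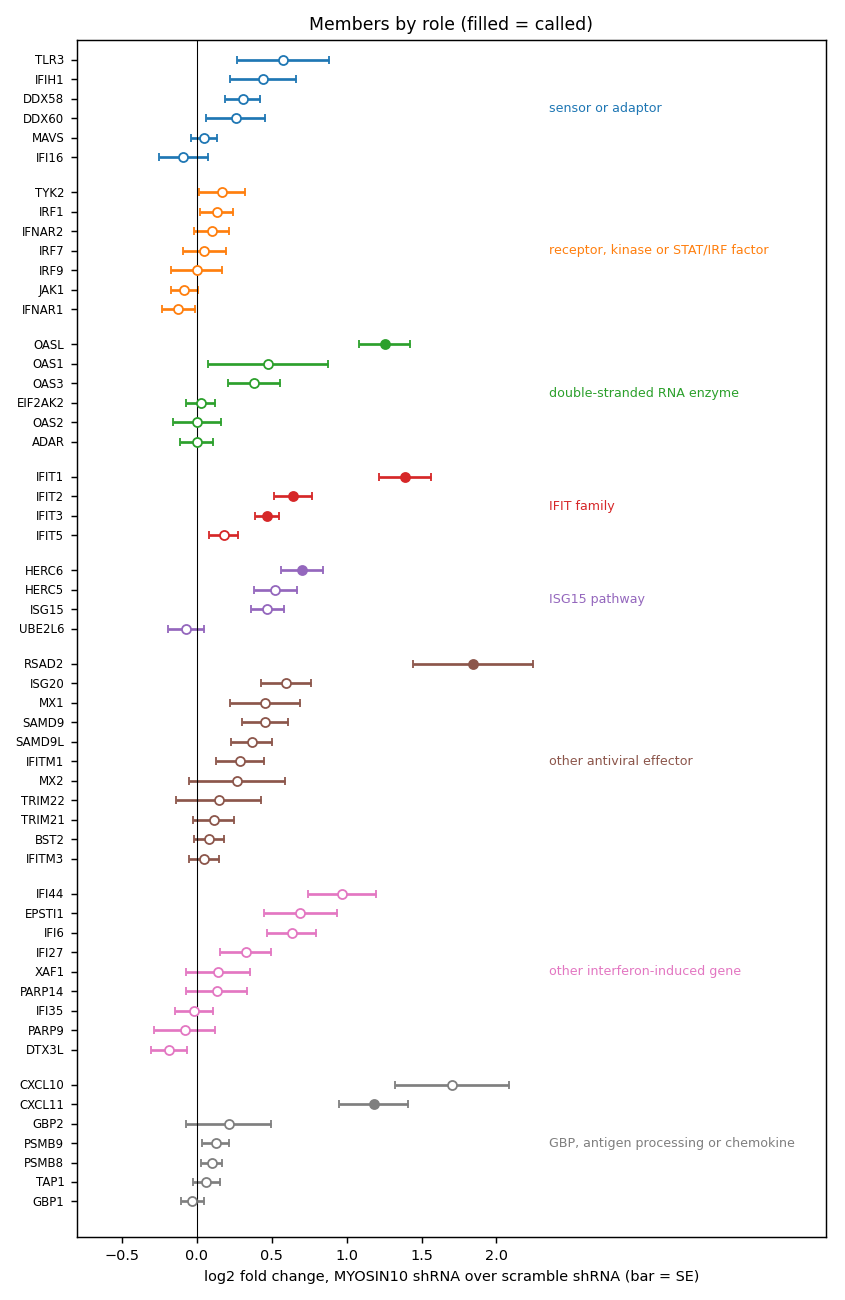
Log2 fold change of each of the 54 tested members (horizontal axis, MYOSIN10 shRNA over scramble shRNA, 3 arrays each), with the standard error as bars, grouped by role. Filled points are called members. All 7 filled points lie to the right of 0, and the receptor, kinase and transcription factor members lie between -0.12 and 0.17.

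Sensors and their adaptor did not pass over all genes tested. Of the 6 tested, 5 had log2 fold changes above 0, against 51.8% of all genes, and the median was 0.28. Of the same 6, 1 was higher at an unadjusted p under 0.05, against 8.49% of all genes. That member was DDX58, the cytosolic RNA helicase RIG-I, which read 9.44, 9.74 and 9.42 on the scramble arrays and 9.78, 9.90 and 9.83 on the MYOSIN10 shRNA arrays. The groups did not overlap, with scramble array 2 just below the lowest MYOSIN10 shRNA array. The difference was 0.31 ± 0.12 (SE, limma adjusted p = 0.242), and 0.41 without scramble array 2 (adjusted p = 0.0393). It did not pass when any other single array was left out (limma adjusted p up to 0.537). Another, dimmer probe set of DDX58 differed by 0.75 and passed when all 33370 kept probe sets were tested (limma adjusted p = 0.036), and the remaining one differed by 0.34 (0.323). The brightest carries the suffix that marks probes able to hybridise with other transcripts.

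IFIH1, the sensor MDA5, stood at 0.44 ± 0.22 (SE, limma adjusted p = 0.389), with scramble signals from 7.60 to 8.14 and MYOSIN10 shRNA signals from 7.83 to 8.65. TLR3, the endosomal receptor, was dim and stood at 0.57 ± 0.31 (adjusted p = 0.423), which fell to 0.28 without scramble array 2, the lowest array at 5.64. The helicase DDX60, described as an aid to RIG-I-like sensors, stood at 0.26 ± 0.20 (adjusted p = 0.594), and at 0.083 without scramble array 2. Both groups overlapped in these 3. The mitochondrial adaptor MAVS was bright and close to level, from 10.65 to 10.72 on scramble arrays and from 10.66 to 10.76 on the others (0.046 ± 0.086 SE, adjusted p = 0.855). IFI16, a nuclear protein that binds DNA, differed by -0.090 ± 0.17 (adjusted p = 0.852), with both arrays numbered 2 the lowest of their groups at 11.35 and 11.29. DHX58, the helicase LGP2, was near the floor with group means of 4.57 and 4.82.

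The receptor, its kinases and the interferon regulatory factors had small differences, with a median of 0.050 and a range from -0.12 to 0.17. Of 7 tested members, each by its brightest probe set, 0 passed the limma test over all genes, against 1.62% of all genes. By the same probe sets, 0 had an unadjusted p under 0.05, against 8.49% higher and 6.39% lower of all genes. Groups that did not overlap were found for 0, against 11.2% higher and 8.56% lower. The receptor subunits IFNAR1 and IFNAR2 stood at -0.12 ± 0.11 and 0.098 ± 0.12 (SE, limma adjusted p = 0.674 and 0.76). A dimmer probe set of IFNAR1 gave -0.41 with no overlap (limma adjusted p = 0.214 over all kept probe sets). Its remaining probe sets gave -0.20 and 0.22 with overlap. The kinase JAK1 read 12.61, 12.39 and 12.77 with scramble and 12.54, 12.48 and 12.51 with MYOSIN10 shRNA, a difference of -0.083 ± 0.093 (SE, limma adjusted p = 0.744). A dimmer probe set of JAK1 gave -0.19 with no overlap (limma adjusted p = 0.334 over all kept probe sets). Another, near the floor, gave 0.39, also with no overlap (adjusted p = 0.686), and the remaining ones gave 0.013 and -0.023. TYK2 stood at 0.17 ± 0.15 (adjusted p = 0.673). IRF1, a transcription factor induced by interferon, stood at 0.13 ± 0.11 (0.638), IRF7, the amplifier of interferon production, at 0.050 ± 0.15 (0.914), and IRF9, the DNA-binding part of the STAT2 complex, was level to within its error, with a standard error of 0.17. Without scramble array 2, JAK1 stood at -0.18 (unadjusted p = 0.0377 and adjusted p = 0.201, limma).

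The IFIT proteins bind viral RNA and hold back its translation, and 3 of the 4 rose, while 1.16% of all genes were called higher. IFIT1, which recognises RNA whose cap lacks a methyl group, read 7.99, 8.64 and 8.06 on the scramble arrays and 9.68, 9.47 and 9.71 on the MYOSIN10 shRNA arrays. Every MYOSIN10 shRNA array was above every scramble array, and scramble array 2 was the closest to the other group. The rise was 2.62-fold (log2 fold change 1.39 ± 0.17 SE, limma adjusted p = 0.00274). IFIT3, a partner that stabilises IFIT1, read 11.54, 11.54 and 11.57 against 12.02, 11.92 and 12.12. The scramble arrays were nearly level with one another and all below the other group, and the rise was 1.38-fold (0.47 ± 0.079 SE, adjusted p = 0.013, limma). Its second probe set, dimmer, gave 0.46 (adjusted p = 0.036 over all kept probe sets).

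IFIT2, the family member linked to cell death, read 9.37, 8.98 and 9.05 against 9.77, 9.70 and 9.85. Scramble array 1 was the highest of its group but still below the others, and the rise was 1.56-fold (0.64 ± 0.13 SE, limma adjusted p = 0.0301). IFIT5 read 10.37, 10.27 and 10.16 against 10.53, 10.41 and 10.39, which did not overlap but did not pass (0.18 ± 0.098 SE, limma adjusted p = 0.428). Its second probe set, dimmer, gave 0.020 with overlapping groups (limma adjusted p = 0.976 over all kept probe sets). IFIT1 was called without any single array. The call of IFIT3 ended without scramble array 1 or 3 or MYOSIN10 shRNA array 1 or 3 (limma adjusted p = 0.0705, 0.0594, 0.0809 and 0.093). That of IFIT2 ended without scramble array 3 or MYOSIN10 shRNA array 1, 2 or 3 (adjusted p = 0.143, 0.127, 0.0521 and 0.156).

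**Figure D3:**
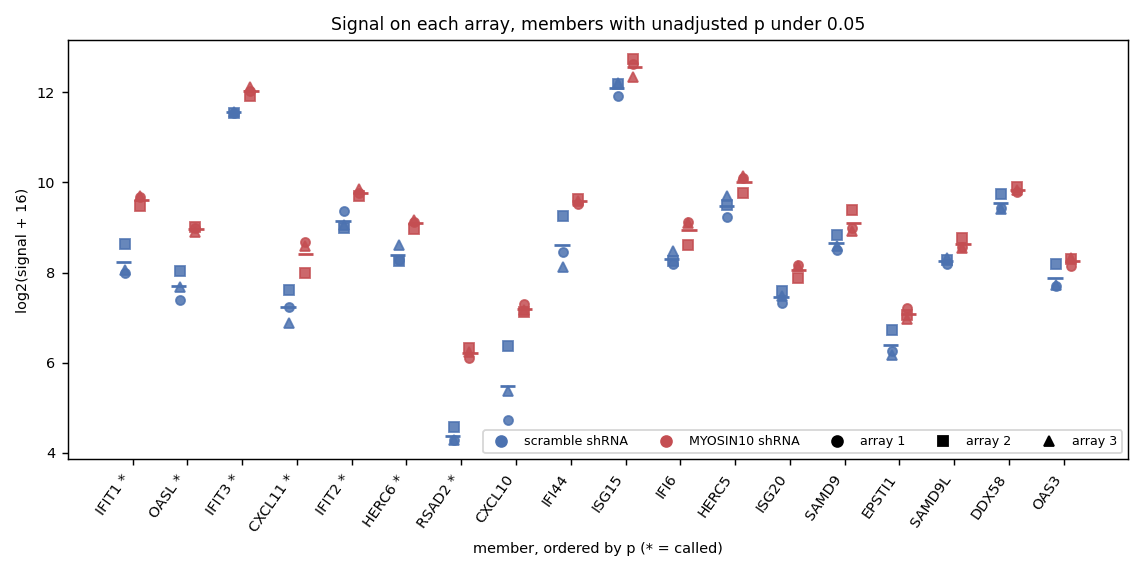
Log2(signal + 16) on each of the 6 arrays (vertical axis) for the 18 members with an unadjusted p under 0.05, ordered by p, with circles, squares and triangles for arrays 1, 2 and 3 and lines at the group means. Stars mark the 7 called members. In all but OAS3 the MYOSIN10 shRNA points lie above the scramble points, and in IFI44 the square of scramble array 2 reaches 9.25, close to the other group.

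Among the enzymes that are activated by double-stranded RNA or act on it, the OAS-like protein OASL rose and the rest did not pass. OASL has lost the 2-5A synthetase activity of its relatives and enhances RIG-I signalling. It read 7.40, 8.05 and 7.68 against 8.99, 9.00 and 8.90, and the MYOSIN10 shRNA arrays were close together and well above the scramble range. The rise was 2.39-fold (1.25 ± 0.17 SE, limma adjusted p = 0.00517), its second probe set gave 0.91 (adjusted p = 0.088 over all kept probe sets), and the call held without any single array.

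OAS3, a synthetase of the 2-5A second messenger that activates RNA decay, read 7.71, 8.19 and 7.72 against 8.15, 8.29 and 8.33. Here scramble array 2 lay within the other group, and the difference was 0.38 ± 0.17 (SE, limma adjusted p = 0.33). OAS1 was near the floor at 0.48 ± 0.40 (adjusted p = 0.645), and OAS2 was level, with group means of 8.65 in both, a standard error of 0.16 and dimmer probe sets at 0.57 and 0.17. EIF2AK2, the kinase PKR that stops translation, was bright at 0.027 ± 0.097 (adjusted p = 0.932), and a dimmer probe set gave 0.29 with no overlap (adjusted p = 0.181 over all kept probe sets). ADAR, which edits adenosines in double-stranded RNA, was level with group means of 11.37 and 11.36 and a standard error of 0.11.

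ISG15 is a ubiquitin-like protein that is attached to other proteins, and of the 4 genes of its pathway that were tested, HERC6 rose. HERC6, a ligase related to the ISG15 ligase HERC5, read 8.27, 8.27 and 8.62 against 9.12, 8.97 and 9.18. No MYOSIN10 shRNA array fell within the scramble range, and the rise was 1.63-fold (0.70 ± 0.14 SE, limma adjusted p = 0.0327). Its call ended without scramble array 1 (adjusted p = 0.156) or MYOSIN10 shRNA array 1 (0.151) or 3 (0.169). ISG15 itself was bright, at 11.91, 12.18 and 12.20 against 12.62, 12.73 and 12.34. The groups did not overlap, and the difference of 0.47 ± 0.11 (SE, limma adjusted p = 0.0601) passed without scramble array 2 (0.51, adjusted p = 0.0244) or MYOSIN10 shRNA array 3 (0.58, adjusted p = 0.0439). Leaving out any of the other arrays, ISG15 did not pass (limma adjusted p up to 0.24).

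HERC5, the main ligase for ISG15 in human cells, read 9.23, 9.50 and 9.70 against 10.10, 9.76 and 10.14, a difference of 0.52 ± 0.14 (SE, limma adjusted p = 0.0971) with no overlap. The conjugating enzyme UBE2L6 differed from these 3 in sign, at -0.071 ± 0.12 (SE, adjusted p = 0.842) with overlapping groups. USP18, the protease that removes ISG15 and dampens the receptor, was near the floor, with group means of 4.65 and 5.16.

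Of the 11 other antiviral effectors that were tested, 11 had log2 fold changes above 0 (9 without scramble array 2), 4 had an unadjusted p under 0.05, and 1, RSAD2, was called. Over all genes, 51.8% were above 0, 8.49% were higher at an unadjusted p under 0.05 and 1.16% were called higher. RSAD2, or viperin, makes a nucleotide analog that ends viral RNA chains. It read 4.28, 4.58 and 4.29 with scramble and 6.11, 6.32 and 6.25 with MYOSIN10 shRNA. Linear signals were at most 7.95 with scramble, the bottom of the scale, and at least 53.3 with MYOSIN10 shRNA, so it passed the filter only through the group where it was high, its call is no support for a shift of the role, and the size of the difference has no firm value. That difference was 1.84 ± 0.40 on the log2(signal + 16) scale (SE, limma adjusted p = 0.0447) and ran from 0.72 to 3.41 over the alternatives. Its call ended without any single array other than scramble array 2, with adjusted p from 0.108 (without MYOSIN10 shRNA array 2) to 0.192 (without MYOSIN10 shRNA array 3), and stood at 0.141 and 0.136 without scramble arrays 1 and 3 and 0.179 without MYOSIN10 shRNA array 1. The value of 0.72 came from a second RSAD2 probe set, which was below the filter and was read only with no filter. Its group means were 5.02 and 5.74 (limma adjusted p = 0.427 with no filter). The neighbouring gene CMPK2, which supplies the nucleotide that viperin converts, was near the floor with group means of 5.59 and 5.63.

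ISG20, an exonuclease that degrades RNA, read 7.34, 7.58 and 7.49 against 8.16, 7.88 and 8.15, with no overlap (0.60 ± 0.17 SE, limma adjusted p = 0.108). Its dimmer probe set gave 1.59 (adjusted p = 0.105 over all kept probe sets). SAMD9 and SAMD9L, neighbouring genes for restriction factors of poxviruses, did not overlap either. SAMD9 read 8.51, 8.84 and 8.59 against 8.98, 9.38 and 8.93 (0.45 ± 0.15 SE, adjusted p = 0.187, limma). SAMD9L read 8.19, 8.27 and 8.32 against 8.56, 8.78 and 8.54 (0.37 ± 0.14 SE, limma adjusted p = 0.233). In both, MYOSIN10 shRNA array 2 was the highest array.

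The dynamin-like GTPases MX1 and MX2 stood at 0.46 ± 0.24 and 0.27 ± 0.32 (SE, limma adjusted p = 0.405 and 0.759), and without scramble array 2 at 0.31 and 0.030. IFITM3, which blocks viral fusion in endosomes, was bright and level, at 13.56, 13.43 and 13.73 against 13.79, 13.42 and 13.65 (0.046 ± 0.10 SE, limma adjusted p = 0.883). Its probe set also bears the suffix for possible cross-hybridisation. IFITM1, which acts at the plasma membrane, read 11.00, 10.89 and 10.90 against 11.47, 10.75 and 11.43. MYOSIN10 shRNA array 2 was the lowest of all 6, the difference was 0.29 ± 0.16 (SE, limma adjusted p = 0.438), and without that array it was 0.52 (adjusted p = 0.0233). With any other single array left out, IFITM1 did not pass (limma adjusted p up to 0.784). BST2, the tether that holds budding virus on the cell, stood at 0.079, TRIM21, an antibody receptor of the cytosol, at 0.11, and TRIM22 at 0.15, which turned to -0.12 without scramble array 2.

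Of 9 other interferon-induced genes tested, 0 passed the limma test over all genes, against 1.62% of all genes. Of these 9, 3 were higher at an unadjusted p under 0.05, against 8.49% of all genes, and the median was 0.14. This median turned to -0.041 without scramble array 2, with 4 of 9 above 0, and without both arrays numbered 2 it was 0.0088. IFI44 read 8.45, 9.25 and 8.13 against 9.51, 9.63 and 9.60. The MYOSIN10 shRNA arrays were close together and above all scramble arrays, of which array 2 was the highest. The difference was 0.97 ± 0.23 (SE, limma adjusted p = 0.0591), and without scramble array 2 it was 1.29 (adjusted p = 0.000238). When any other single array was left out, IFI44 did not pass (limma adjusted p up to 0.235). IFI6, a protein of mitochondria and the endoplasmic reticulum, read 8.20, 8.25 and 8.47 against 9.13, 8.60 and 9.09 (0.63 ± 0.16 SE, limma adjusted p = 0.0826), and passed without MYOSIN10 shRNA array 2 (0.80, adjusted p = 0.0325). With any other single array left out, IFI6 did not pass (limma adjusted p up to 0.324). EPSTI1 read 6.27, 6.72 and 6.17 against 7.21, 7.06 and 6.97, also without overlap (0.69 ± 0.24 SE, limma adjusted p = 0.205).

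IFI27 was bright, at 11.84, 11.38 and 11.79 against 12.28, 11.57 and 12.13. The arrays numbered 2 were the lowest of their groups, and the difference was 0.33 ± 0.17 (SE, limma adjusted p = 0.407). It was 0.18 without scramble array 2 and 0.39 without both arrays numbered 2, where it passed (adjusted p = 0.0121). The neighbours PARP9, DTX3L and PARP14, an ADP-ribosyltransferase-like protein, its ubiquitin ligase partner and an ADP-ribosyltransferase, stood at -0.081, -0.19 and 0.13. Among the tested members DTX3L had the lowest value, with limma adjusted p = 0.523 and overlapping groups. Without scramble array 2 it stood at -0.30 (unadjusted p = 0.0145 and adjusted p = 0.117). IFI35 stood at -0.020 and XAF1, a promoter of apoptosis, at 0.14. PARP14 and XAF1 turned to -0.093 and -0.041 without scramble array 2. IFI44L was near the floor next to IFI44, with group means of 5.25 and 4.95.

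The last role holds genes that also respond to interferon gamma, and 1 of its 7 members rose, while 1.16% of all genes were called higher. That member was CXCL11, which lies beside CXCL10, and both encode chemokines that draw T cells through the receptor CXCR3. CXCL11 read 7.24, 7.61 and 6.88 against 8.69, 7.99 and 8.59, with no overlap and both arrays numbered 2 the closest to the other group. The rise was 2.27-fold (1.18 ± 0.23 SE, limma adjusted p = 0.0299), its second probe set gave 0.68 (adjusted p = 0.194 over all kept probe sets), and the call ended without scramble array 1 or 3 or MYOSIN10 shRNA array 1 or 3 (adjusted p = 0.121, 0.128, 0.157 and 0.155).

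CXCL10 had linear signals of 10.6, 66.7 and 25.6 with scramble and 142, 123 and 128 with MYOSIN10 shRNA. The scramble arrays ranged widely near the floor, and the other group was tight above them. Scramble arrays 1 and 3 lay below the near-floor limit of 6 on the log2(signal + 16) scale, so the size has no firm value here either. The difference was 1.70 ± 0.38 (SE, limma adjusted p = 0.0508), and it ran from 1.03 to 2.26 over the alternatives. Without scramble array 2, where both remaining scramble arrays were near the floor, the adjusted p was 0.00267. When any other single array was left out, CXCL10 did not pass (limma adjusted p up to 0.2). The genes of antigen processing were bright and their differences small. PSMB8 and PSMB9, subunits of the immunoproteasome, stood at 0.098 ± 0.073 and 0.13 ± 0.092, and TAP1, the peptide transporter between them on the chromosome, at 0.064 ± 0.092 (SE, limma adjusted p = 0.591, 0.58 and 0.805). PSMB9 read 11.91, 11.71 and 11.98 against 11.95, 12.11 and 11.92. The guanylate-binding protein GBP1 was bright and level, from 11.30 to 11.35 against 11.27 to 11.31 (-0.031 ± 0.076 SE, adjusted p = 0.897), while its neighbour GBP2 stood at 0.21 ± 0.28 with scramble array 2 far below the others at 8.12, and turned to -0.15 without it.

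Called members were found among bright and dim genes. A member was bright where the higher of its group means was at least 9.07, the median over the genes tested. Of 31 bright members, 4 were called and 9 had an unadjusted p under 0.05, with a median log2 fold change of 0.13. Of 22 dimmer members above a mean of 6, 3 were called and 9 had an unadjusted p under 0.05, with a median of 0.37. RSAD2, which passed the filter only through the MYOSIN10 shRNA arrays and so had to differ, is among these 3 and these 9. Over all genes tested, of any brightness, 1.16% were called higher and 8.49% were higher at an unadjusted p under 0.05. A further 5 were near the floor (OAS1, DHX58, USP18, CMPK2 and IFI44L), of which OAS1 alone was tested. Among bright members, the 22 effectors had a median of 0.15 and 4 calls, and the 9 sensors and signalling genes a median of 0.098 and 0 calls, with 1 at an unadjusted p under 0.05. Over all brightness classes, the medians were 0.29 for 41 effectors and 0.098 for 13 sensors and signalling genes. Without scramble array 2 these medians were 0.18 and 0.073, with 10 and 1 calls. The difference between these classes of genes was not tested.

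**Figure D4:**
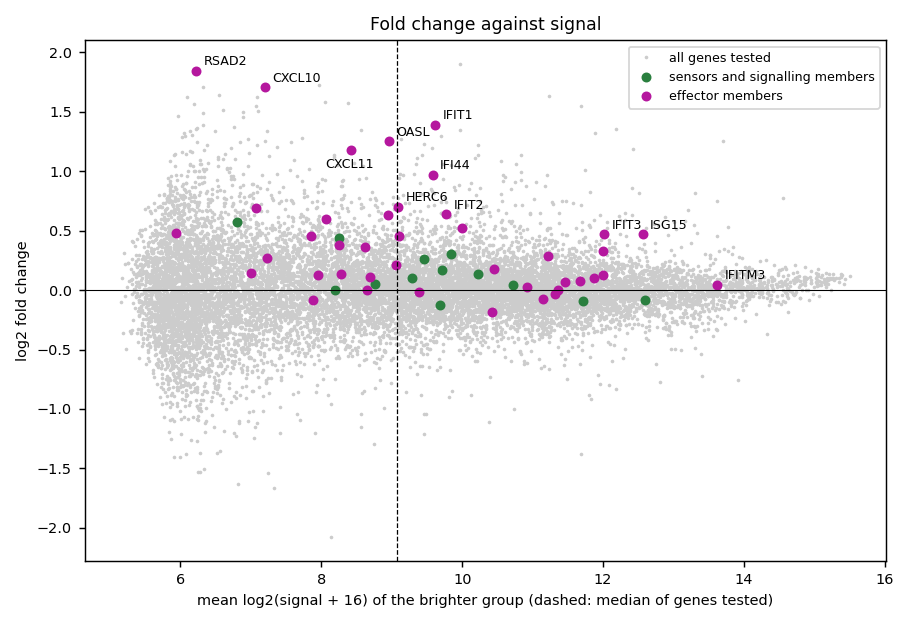
Log2 fold change (vertical axis) against the mean log2(signal + 16) of the brighter group (horizontal axis), for all 14174 genes tested in grey and the 54 members in colour, with the dashed line at the median of the genes tested. IFIT1 and IFIT3 lie among bright genes, RSAD2 and CXCL10 lie where grey points spread widely, and IFITM3 lies near 0 at a signal above 13.4.

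The arrays numbered 2 stood low in many members of the list. Over the 54 tested members, scramble array 2 was the lowest of all 6 arrays for 21 and the highest for 2, while MYOSIN10 shRNA arrays 1 and 3 were the lowest for 0 and the highest for 17 and 14. The median deviation of the members from their own mean was -0.18 on scramble array 2, against -0.030 and -0.050 on scramble arrays 1 and 3, and was 0.039 on MYOSIN10 shRNA array 2, against 0.20 and 0.14 on arrays 1 and 3. Over all genes the same medians lay between -0.016 and 0.019. Among the 7 called members the order was otherwise: scramble array 2 was at a median of -0.29 and arrays 1 and 3 at -0.60 and -0.65, while MYOSIN10 shRNA array 2 was at 0.25 and arrays 1 and 3 at 0.65 and 0.56. For the 18 members with an unadjusted p under 0.05, scramble array 2 was the highest scramble array in 11, and for the other 36 it was the lowest in 27. These 18 were picked by the same values, so the contrast is a description.

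**Figure D5:**
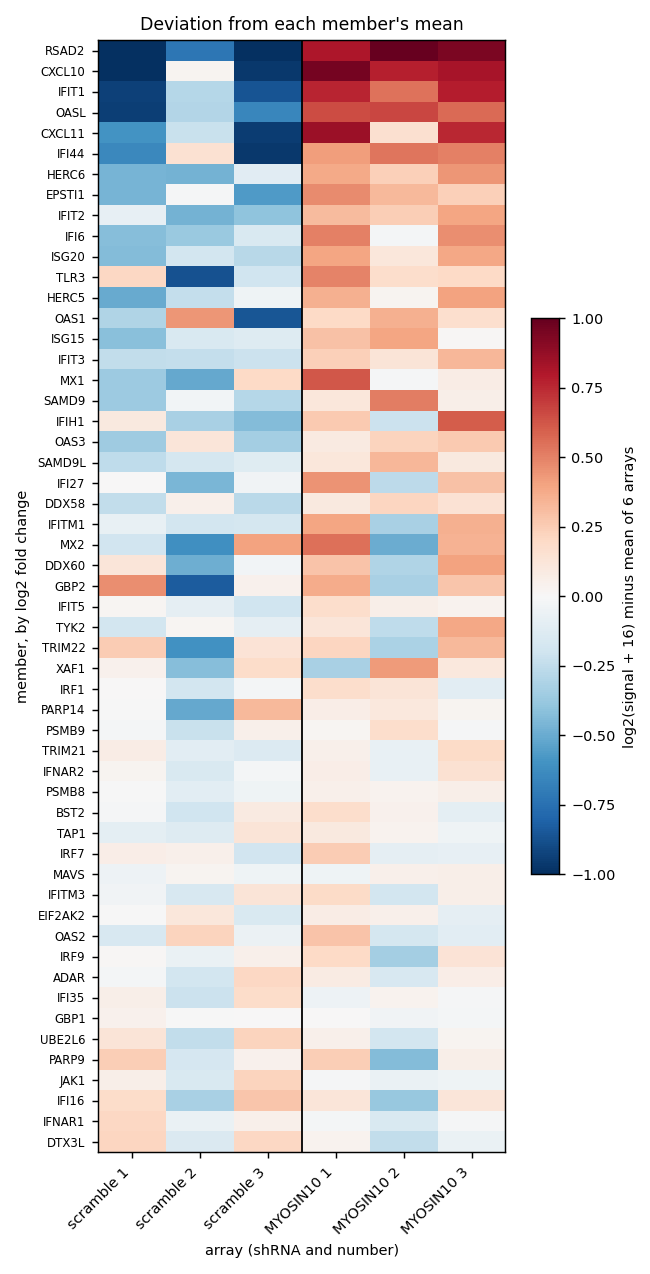
Deviation of log2(signal + 16) from the mean of the 6 arrays for each tested member (rows, ordered by log2 fold change) on each array (columns), with red above and blue below the mean and colours capped at 1. The top rows, from RSAD2 to IFI44, are blue on scramble arrays 1 and 3 and red on the 3 MYOSIN10 shRNA arrays, while lower rows such as GBP2 and MX2 are blue mainly on the arrays numbered 2.

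Probe sets of the same member mostly went the same way. Another kept probe set existed for 26 tested members, and in 24 of them the second in brightness shared the sign of the first, including all 4 called members that had one. The other 28 rested on a single kept probe set, IFIT1, HERC6 and RSAD2 among them. Values also ranged among genes that lie next to each other. IFIT2, IFIT3, IFIT1 and IFIT5 form a cluster in which the values ran from 0.18 to 1.39, HERC6 and HERC5 stood at 0.70 and 0.52, and OAS1, OAS3 and OAS2 at 0.48, 0.38 and near 0.

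A wider list of 88 genes linked to nucleic acid sensing, interferon or antigen presentation was read beside the members. It was drawn from general knowledge, with earlier results of these data known. Of 70 tested, 0 were called higher, against 1.16% of all genes, and 2 were called lower (2.86%, against 0.459% of all genes). At an unadjusted p under 0.05, 10 were higher (14.3%, against 8.49% of all genes) and 5 lower (7.14%, against 6.39%), and the median was 0.039. Among those not called, TNFSF10 had the smallest p, at 0.87 ± 0.23 with overlapping groups (SE, limma adjusted p = 0.0832). Of the interferons themselves, IFNB1, IFNA1, IFNA2, IFNE and IFNG were below the filter, with group means from 4.19 to 5.06. IFNL1 and IFNL2 passed it at low levels, with group means of 5.98 and 6.35 for IFNL1 and of 5.96 and 5.63 for IFNL2 (log2 fold changes 0.37 and -0.33, limma adjusted p = 0.682 and 0.729). Of the 2 genes that fell, DICER1, which cuts double-stranded RNA into small RNAs, read 11.74, 11.56 and 11.72 against 10.99, 11.18 and 10.99 (-0.62 ± 0.090 SE, limma adjusted p = 0.00611), and the call held without any single array but not with the mean of probe sets (-0.34, adjusted p = 0.174) or without the variance trend (adjusted p = 0.135). GBP3, a guanylate-binding protein, read 13.09, 12.72 and 13.09 against 12.48, 12.50 and 12.42. It fell by 0.50 on the log2 scale (± 0.099 SE, limma adjusted p = 0.0307), in the direction opposite to the called members, and passed without scramble array 2 but did not pass when any of the other 5 arrays was left out (limma adjusted p from 0.0616 without MYOSIN10 shRNA array 2 to 0.167 without scramble array 1).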

How the data were processed

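Per the submitters' processing notes, the arrays were summarised with MAS5, of which no further setting is stated. The authors deposited log2 signals. That scale was inferred from the values, since the linear signals had a 2%-trimmed mean of 500.07 to 500.08 on every array. This common scaling would hide a change of total RNA per cell. Here 16 was added to the linear signal and log2 taken again, which understates changes of dim genes. Of 54675 probe sets, 33370 passed the filter. Symbols came from the platform annotation, updated through RefSeq (GRCh38.p14). Each gene took its kept single-symbol probe set with the highest mean, which gave 14174 genes. The test was that of limma 3.58.1, run in R 4.3.3 (eBayes with a variance trend, two-sided, Benjamini-Hochberg over all genes), and called means an adjusted p under 0.05. The steps were tested on simulated data. Arrays carry no read depth, and 3 per group limit the precision. Members, lists and tests were chosen with earlier results of these data known. Full values are given for called members, those with an unadjusted p under 0.05, the 5 brightest, and called genes of the wider list. Alternatives were the pseudocount, filter, scaling, probe set rule, variance model, array weights, replicate block and each array left out. Figures used matplotlib 3.10.9.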

Additional observations from a re-analysis of the deposited data

How the results depend on the processing

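The number of members called lower was 0 in all 18 alternatives. The number called higher, 7, was 3 with no filter, 1 without the variance trend (RSAD2), 13 with array weights, 13 with the replicate block and 15 without both arrays numbered 2, and ran from 2 to 11 when single arrays were left out. The share of all genes called higher moved too. It was 1.16%, and in the same order 0.511%, 0.0494%, 3.49%, 2.74% and 4.90%, and ran from 0.367% to 3.93% without single arrays. With no filter, 58 members and 19775 genes were tested. Genes called over all genes tested, 229, were 126 with no filter, 111 with the mean of probe sets, 7 without the variance trend, 791 with array weights, 611 with the replicate block and 1224 without both arrays numbered 2, and ran from 66 to 964 without single arrays. The members' median of 0.20 was 0.33 without probe sets ending in _s_at or _x_at and ran from 0.10 to 0.30 without single arrays. The labels do not say what the replicate numbers mark. Deviations of same-numbered arrays from their group means correlated at 0.0587, 0.163 and 0.0397, against -0.111 to 0.0655 for unlike numbers. The value for the arrays numbered 2, 0.163, was the highest, and an effect shared by arrays of the same number was not tested. IFIT1 and OASL were called in 17 of 18 alternatives each and not without the variance trend (limma adjusted p = 0.11 and 0.109).

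Signs turned only for uncalled members. IRF9 stood at 0.0019 with 64 added, 0.014 with median centring, 0.057 with array weights and 0.14 without both arrays numbered 2. OAS2 stood at 8.45e-05, 0.014, 0.096 and 0.20 under the same settings and at 0.25 with the mean of probe sets. That mean put JAK1 at 0.023 and GBP1 at 0.00036. Median centring put ADAR at 0.012, and array weights put XAF1 at -0.033. Without both arrays numbered 2, XAF1 stood at -0.22, PARP9 at 0.0088, PARP14 at -0.11 and PSMB9 at -0.012. Without single arrays, log2 fold changes ran from -0.10 to 0.17 for IRF9, -0.14 to 0.11 for OAS2, -0.18 to 0.0083 for JAK1, -0.28 to 0.077 for IFI16, -0.063 to 0.11 for IRF7, -0.042 to 0.090 for EIF2AK2, -0.096 to 0.10 for ADAR, -0.21 to 0.022 for UBE2L6, -0.13 to 0.068 for IFI35, -0.23 to 0.11 for PARP9, -0.039 to 0.15 for IFITM3, -0.12 to 0.34 for TRIM22, -0.041 to 0.34 for XAF1, -0.093 to 0.32 for PARP14 and -0.15 to 0.50 for GBP2. The cause was not tested.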
